A study of Homo sapiens with 6 samples.

Results

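The genes described here are OSMR, IL6R, IL6ST, LIFR, LEPR, JAK1, JAK2, STAT3, SOCS3 and PIM1, which encode receptor chains of the IL6 family, the JAK kinases on them, STAT3, and SOCS3 and PIM1, which STAT3 is known to induce. They are 10 of the 38637 genes in the deposited table, taken by symbol, and all 10 passed the filter on low values. They were chosen by their differences between the groups compared below, so those differences are given as a description, with no p-value, and where the genes are counted beside the rest of the table the count tests nothing.

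RNA from OVCAR8, an established human ovarian cancer cell line with a wild-type genotype per the labels, was sequenced after poly(A) enrichment. The 3 samples of the control group received the solvent DMSO, and the 3 samples of the pladienolide B group received 2 nM of this inhibitor of SF3B1, a component of the spliceosome, for 72 h. All 6 samples come from 1 cell line, and the labels do not say whether the 3 samples of a group were separate cultures, so an error or a p-value covers only the spread between samples, which may be technical. The study asked how inhibition of SF3B1 changes gene expression in ovarian cancer cells, and IL6-JAK-STAT3 signalling was among the pathways it examined.

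Cytokines of the IL6 family bind a specific receptor chain, which pairs with the shared signalling chain gp130, the product of IL6ST. IL6R binds IL6, and LEPR is the related receptor for leptin. OSMR or LIFR pairs with gp130 to bind oncostatin M, and LIFR with gp130 also binds leukaemia inhibitory factor. The paired chains activate JAK kinases, which phosphorylate STAT3, and STAT3 then induces its own inhibitor SOCS3 and the kinase PIM1.

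The samples had between 22621338 and 26130882 reads on genes, recovered from the deposited values. Values below are the deposited adjusted read counts, which are reads scaled to a common library size, and differences are log2 fold changes of (value + 1), pladienolide B against DMSO, with the standard error (SE) of limma's fit. DMSO sample 2 stood apart from the other 2 DMSO samples: counts over genes differed from theirs with a chi-square per degree of freedom of 7.25 and 7.34, against 2.01 between the others. The pairs of pladienolide B samples gave 3.17, 3.24 and 4.82. By Pearson's correlation of log2(value + 1) the DMSO pairs were alike, at 0.9915 to 0.9916. The epithelial keratins KRT8 and KRT18 and the Mullerian factor PAX8 were high in every sample, while KRT19, WT1, MUC16 and CDH1 had 8.02 to 41.6 adjusted reads. The summed level of the 8 epithelial and Mullerian markers was 63551 to 68508 with DMSO alone and 70864 to 83368 with the inhibitor. The summed level of the 6 leukocyte markers, nearly all of it from CD68, was 1156 to 1321 with DMSO alone and 1543 to 1639 with the inhibitor, with CD3E at 0 in all samples. ITGAM, another of the 6, fell from 27.0 ± 8.16 to 12.8 ± 1.96 (SD, n = 3; log2 fold change -0.99, limma adjusted p = 0.021) while CD68 rose (0.41, adjusted p = 2.4e-05). The summed level of the 4 endothelial markers was 55.3 to 73.6 and 70.1 to 93.2. Whether these shifts bear on the genes below was not tested. In these bulk samples, fewer cells of a kind and less RNA per cell cannot be told apart.

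Upstream sequence is shown for 4 of the genes: OSMR and LIFR, receptor neighbours on chromosome 5 that moved in opposite directions, and SOCS3 and PIM1, the induced genes. The sequences come from RefSeq on GRCh38.p14 and run 5′ to 3′ on the gene's strand up to the base before its annotated start. Capitals mark TTCNNNGAA, the core letters of a STAT element, which read alike on both strands.
OSMR: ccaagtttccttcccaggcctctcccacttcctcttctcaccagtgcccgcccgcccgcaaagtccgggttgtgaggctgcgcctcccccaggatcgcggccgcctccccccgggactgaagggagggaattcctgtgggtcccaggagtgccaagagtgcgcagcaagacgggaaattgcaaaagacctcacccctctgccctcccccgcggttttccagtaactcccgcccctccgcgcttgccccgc
LIFR: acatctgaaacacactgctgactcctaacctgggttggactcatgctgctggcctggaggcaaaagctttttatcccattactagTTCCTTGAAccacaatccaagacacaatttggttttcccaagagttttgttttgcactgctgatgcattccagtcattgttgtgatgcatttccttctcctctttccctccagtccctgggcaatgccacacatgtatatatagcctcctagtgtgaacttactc
SOCS3: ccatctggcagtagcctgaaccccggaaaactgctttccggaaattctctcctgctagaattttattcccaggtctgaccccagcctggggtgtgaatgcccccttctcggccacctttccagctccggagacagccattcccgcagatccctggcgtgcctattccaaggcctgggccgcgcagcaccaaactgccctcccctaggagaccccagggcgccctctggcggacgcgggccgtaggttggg
PIM1: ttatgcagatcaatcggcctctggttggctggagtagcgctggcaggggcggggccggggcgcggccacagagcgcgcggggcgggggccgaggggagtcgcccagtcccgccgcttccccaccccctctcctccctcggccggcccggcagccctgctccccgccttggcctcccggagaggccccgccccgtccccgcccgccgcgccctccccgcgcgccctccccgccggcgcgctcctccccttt
These stretches lie at chr5:38845762-38846011 on the plus strand for OSMR, chr5:38595406-38595655 on the minus strand for LIFR, chr17:78360926-78361175 on the minus strand for SOCS3 and chr6:37169902-37170151 on the plus strand for PIM1. All 10 genes have a promoter window in the RefSeq table, and LIFR was the only one of them to hold TTCNNNGAA in a window of 300 bases around the start. Its match, TTCCTTGAA, lies 165 to 157 bases before a start that is 10.9 kb inside the deposited LIFR gene, so it belongs to a start within the gene rather than to its outermost end. The letters occur in 7.66% of all 35116 promoter windows and in 6.48% of the 12198 windows of tested genes, and the stricter TTCCNGGAA, which occurs in 1.15% of all windows and is contained in the first motif, was in none of the 10. A match is a description of the letters and not a binding site, and its absence says only that the letters are not in this window. The windows differ in composition, from 47.3% GC in LIFR to 79.7% in PIM1, with a median of 58.7% over all promoters.

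Across the table, 3618 of the 16178 genes tested (22.4%) rose with pladienolide B under limma's test with a Benjamini-Hochberg adjusted p under 0.05, 4077 (25.2%) fell, and 7695 (47.6%) passed in either direction. The 3 samples of each group did not overlap in 8941 genes (55.3%). By the same cut, 3 of the 10 genes are among those counted as higher (IL6R, LIFR and LEPR), 3 are among those counted as lower (OSMR, JAK2 and PIM1), and 4 are in neither count. The groups did not overlap in 7 genes, the 6 named and JAK1. The contrast chose these genes, so these counts describe the choice, are no test of it, and nothing is read from them.

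**Figure D1:**
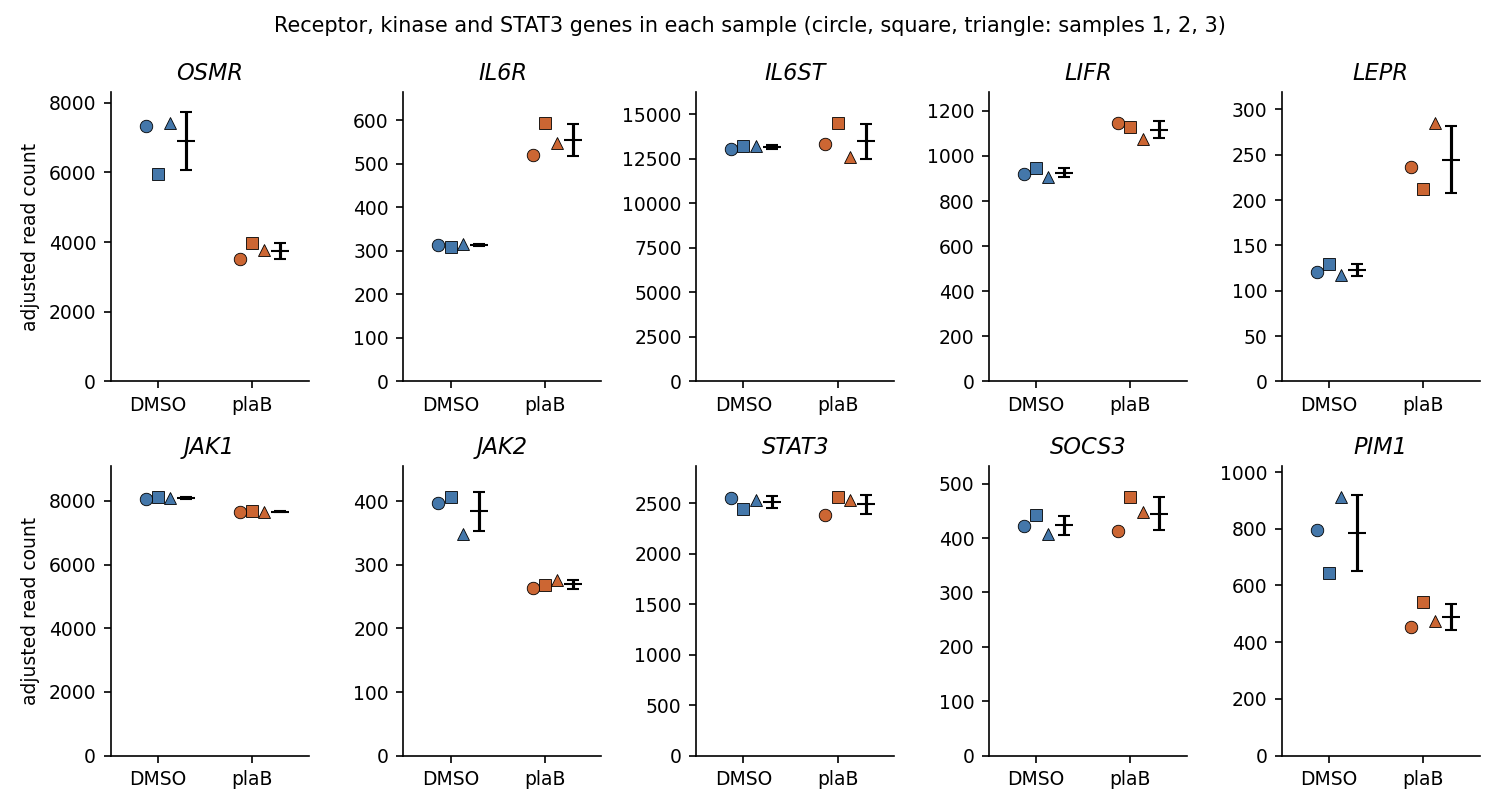
Adjusted read count (y axis, from 0, on a scale of its own for each gene) of the 10 genes in the 3 DMSO and 3 pladienolide B (plaB) samples. Circles, squares and triangles are samples 1, 2 and 3, and the bar beside them is the mean with its SD. OSMR, JAK2 and PIM1 lie lower in every pladienolide B sample, IL6R, LIFR and LEPR lie higher, and IL6ST, STAT3 and SOCS3 overlap.

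Among the receptor chains, IL6ST, the shared gp130 chain, was level between the groups, while the chains that bind particular cytokines moved apart. OSMR fell to 54.3% of its DMSO level, IL6R and LEPR rose, and LIFR rose by a smaller step.

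OSMR lies on the plus strand of chromosome 5 (38846012 to 38945579, GRCh38) and has 18 exons in its canonical GENCODE transcript. Its adjusted read counts were 7347, 5955 and 7421 in DMSO samples 1, 2 and 3 and 3518, 3984 and 3760 in the pladienolide B samples. Every pladienolide B sample was lower than every DMSO sample, and DMSO sample 2 was the lowest of its group by a wide margin. The means were 6908 ± 826 and 3754 ± 233 (SD, n = 3), a log2 fold change of -0.87 (SE 0.068). Leaving out each sample in turn gave -0.98 to -0.82, the former without DMSO sample 2. Of all genes tested, 3.12% fell as far or further. OSMR's end overlaps RICTOR, a gene on the opposite strand that encodes a subunit of the mTORC2 complex. In GENCODE, 3.19% of OSMR's exon bases lie in RICTOR exons, but none of its canonical transcript does. Counted over its whole length, RICTOR moved the other way. It went from a range of 1991 to 2143 in DMSO to one of 2232 to 2391 in pladienolide B (log2 fold change 0.17, limma adjusted p = 0.0072).

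LIFR, on the minus strand of chromosome 5 (38474668 to 38606290, 20 canonical exons), lies 240 kb from OSMR. Its values were 921, 948 and 908 in DMSO and 1146, 1130 and 1075 in pladienolide B, so the groups did not overlap and both were tight. The mean rose from 925 ± 20.1 to 1117 ± 37.2 (SD, n = 3), 121% of DMSO, with a log2 fold change of 0.27 (SE 0.056) and a range of 0.25 to 0.30 when each sample was left out. This was the smallest of the 3 rises, and 19.8% of all tested genes rose as far or further. The antisense gene LIFR-AS1, which overlaps some LIFR exons on the opposite strand but none of the canonical transcript, had 13.1 to 22 adjusted reads.

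For each 100 LIFR reads, the DMSO samples held 798, 628 and 817 OSMR reads and the pladienolide B samples 307, 352 and 350. This ratio within a sample does not depend on library size. It fell from 748 ± 104 to 336 ± 25.5 (SD, n = 3), and the highest pladienolide B sample was well below the lowest DMSO sample. OSMR and LIFR are the alternative partners of gp130 for oncostatin M.

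IL6R, the ligand-binding chain for IL6, lies on the plus strand of chromosome 1 (154405343 to 154469450, 10 canonical exons). It had 313, 310 and 315 adjusted reads in DMSO and 521, 594 and 549 in pladienolide B. All pladienolide B samples were higher than all DMSO samples. The mean rose from 313 ± 2.21 to 555 ± 36.7 (SD, n = 3), or 1.77-fold, with a log2 fold change of 0.82 (SE 0.079) that ran from 0.77 to 0.87 when each sample was left out. Counting alone gives an SD of 17.7 at the DMSO mean, so the 3 DMSO samples were closer than counting error. Of the tested genes, 3.09% rose as far or further.

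The end of IL6R overlaps 2256 bases of the deposited span of SHE, an adaptor gene on the opposite strand. In GENCODE no exon of IL6R overlaps an exon of SHE. The deposited spans, however, overlap at the end of each gene, where its last exon lies, so the exons behind the deposited counts may overlap. Whether reads of the overlap entered either count was not tested. SHE rose too, from a range of 141 to 146 in DMSO to one of 246 to 298 in pladienolide B (log2 fold change 0.87, limma adjusted p = 6.5e-06). The sources used here do not say whether reads were counted by strand, and without strand the reads of the overlap cannot be told apart.

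LEPR, the leptin receptor, lies on the plus strand of chromosome 1 (65420652 to 65641559, 20 canonical exons) and had the lowest values of the 10. They were 121, 130 and 117 in DMSO and 237, 212 and 285 in pladienolide B. No value was shared between the ranges, and the pladienolide B samples were more spread. The mean rose from 123 ± 6.58 to 244 ± 36.9 (SD, n = 3), 1.99-fold, a log2 fold change of 0.98 (SE 0.126) with a range of 0.86 to 1.07 when each sample was left out. Of the tested genes, 2.22% rose as far or further. LEPROT, a regulator of receptor trafficking that starts beside LEPR on the same strand, fell from a range of 2823 to 3104 in DMSO to one of 2345 to 2434 in pladienolide B (log2 fold change -0.31, limma adjusted p = 3.5e-05). Of the bases in LEPR's canonical exons, 1.81% lie in a LEPROT exon, and 3.28% of those in LEPROT's canonical exons lie in a LEPR exon. LEPROT had far more reads than LEPR, and whether reads of the shared bases entered LEPR's count was not tested.

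IL6ST lies on the minus strand of chromosome 5 (55935095 to 55994963, 17 canonical exons). Its values were 13055, 13233 and 13201 in DMSO and 13319, 14499 and 12571 in pladienolide B. The pladienolide B samples lay on both sides of the DMSO samples. The means were 13163 ± 94.8 and 13463 ± 972 (SD, n = 3), a log2 fold change of 0.03 (SE 0.047), and leaving out each sample gave -0.02 to 0.08.

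Set against IL6ST within each sample, IL6R, LEPR and OSMR shifted in their own directions. For each 100 IL6ST reads there were 2.40, 2.35 and 2.38 IL6R reads in DMSO and 3.91, 4.10 and 4.37 in pladienolide B, with means of 2.38 ± 0.0282 and 4.13 ± 0.228. LEPR rose from 0.933 ± 0.0479 to 1.83 ± 0.404 reads per 100 of IL6ST, and OSMR fell from 52.5 ± 6.50 to 27.9 ± 1.79 (SD, n = 3 each). In all 3 ratios the groups did not overlap.

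**Figure D2:**
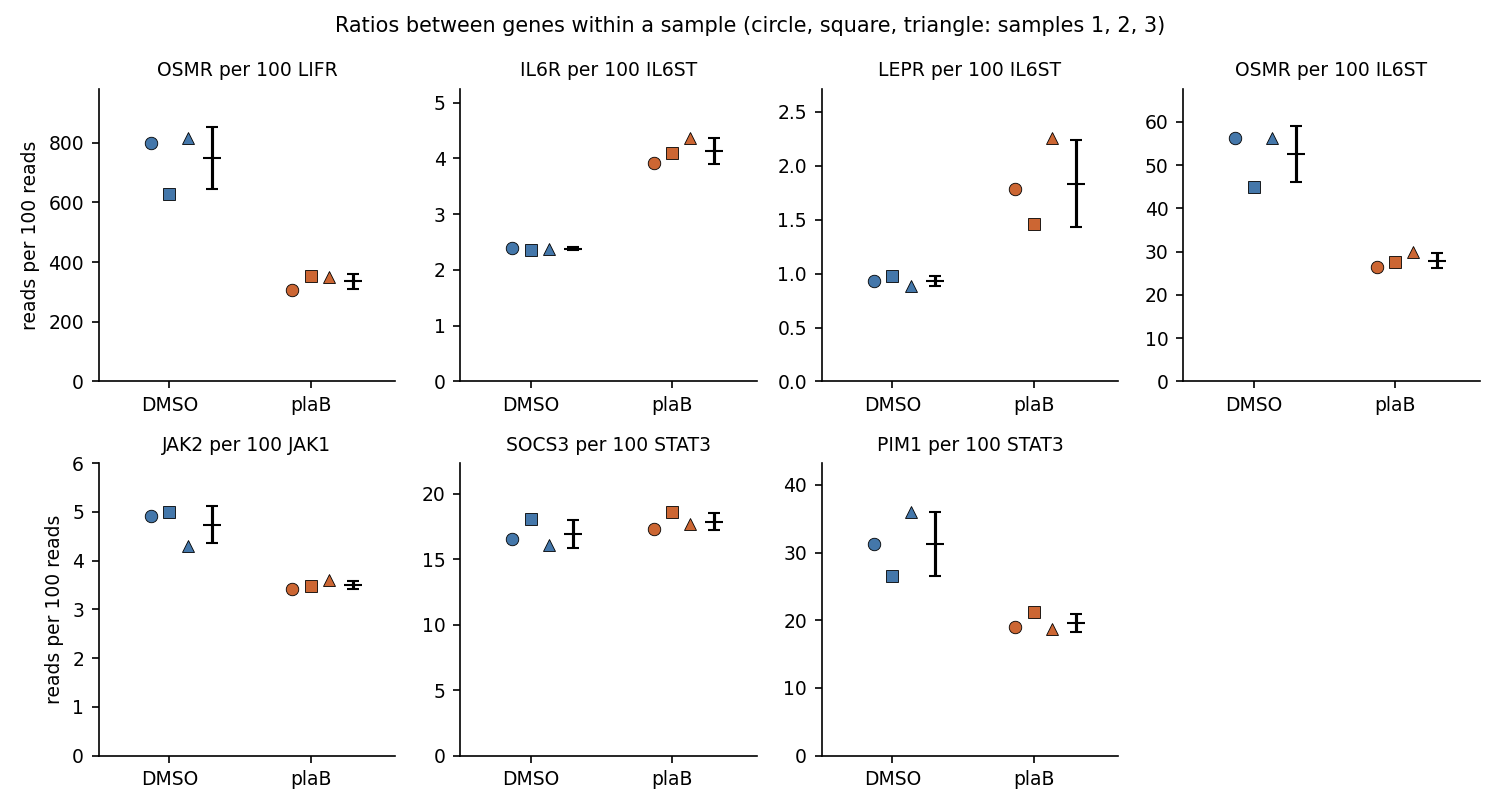
Reads of a gene for each 100 reads of the gene it is set against within the same sample (y axis, from 0). The DMSO and pladienolide B (plaB) groups are shown, with samples 1, 2 and 3 as circle, square and triangle and the mean with its SD beside them. OSMR per LIFR, OSMR per IL6ST, JAK2 per JAK1 and PIM1 per STAT3 are lower in every pladienolide B sample, IL6R and LEPR per IL6ST are higher, and SOCS3 per STAT3 overlaps at 16.9 ± 1.08 and 17.9 ± 0.63.

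Of the kinases that sit on these chains, JAK2 was lower in pladienolide B and JAK1 differed by a few percent. JAK1, the main kinase of gp130, lies on the minus strand of chromosome 1 (64833229 to 65067746, 25 canonical exons), 353 kb from LEPR. Its values were 8075, 8116 and 8081 in DMSO and 7660, 7680 and 7658 in pladienolide B. The ranges were separate, but the means of 8091 ± 22.2 and 7666 ± 12.1 (SD, n = 3) were only apart by a log2 fold change of -0.08 (SE 0.037), and 41.6% of tested genes fell as far or further. The SDs were below those that counting alone gives, such as 87.6 at the pladienolide B mean, and 0.148% of the tested genes had a smaller coefficient of variation in DMSO. RAVER2, which overlaps JAK1's end by 183 bases on the opposite strand, rose from a range of 906 to 926 in DMSO to one of 1024 to 1139 (log2 fold change 0.22, limma adjusted p = 0.0045).

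JAK2, the kinase best known for signalling from growth hormone, erythropoietin and leptin receptors, lies on the plus strand of chromosome 9 (4984390 to 5129948, 25 canonical exons). It had 397, 406 and 348 adjusted reads in DMSO and 263, 268 and 276 in pladienolide B. No pladienolide B sample reached the DMSO range, whose lowest value was that of sample 3. The mean went from 384 ± 31.0 to 269 ± 6.47 (SD, n = 3), 70.0% of DMSO, a log2 fold change of -0.51 (SE 0.090) and a range of -0.58 to -0.47 when each sample was left out. For each 100 JAK1 reads there were 4.91, 5.0 and 4.31 JAK2 reads in DMSO and 3.43, 3.49 and 3.60 in pladienolide B.

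STAT3, the transcription factor that the receptor and kinases activate, lies on the minus strand of chromosome 17 (42313324 to 42388502, 24 canonical exons). Its values were 2553, 2438 and 2530 in DMSO and 2382, 2557 and 2530 in pladienolide B. The highest and the lowest sample of the 6 were both in the pladienolide B group. The means were 2507 ± 60.8 and 2490 ± 94.6 (SD, n = 3), 99.3% of DMSO, a log2 fold change of -0.01 (SE 0.046) with -0.03 to 0.02 when each sample was left out. These are levels of STAT3 mRNA, and phosphorylation of the protein was not measured in these samples.

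Of the induced genes, PIM1 was lower in pladienolide B, and the SOCS3 samples of the groups overlapped. SOCS3, which binds gp130 and JAKs to stop the signal, lies on the minus strand of chromosome 17 (78356778 to 78360925, 2 canonical exons). It had 422, 442 and 407 adjusted reads in DMSO and 413, 475 and 447 in pladienolide B, so the groups overlapped. The means were 424 ± 17.8 and 445 ± 30.8 (SD, n = 3), a log2 fold change of 0.07 (SE 0.080) with 0.02 to 0.12 when each sample was left out.

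PIM1, a serine/threonine kinase that promotes survival, lies on the plus strand of chromosome 6 (37170152 to 37175428, 6 canonical exons). It had 797, 645 and 911 adjusted reads in DMSO and 454, 542 and 474 in pladienolide B. The ranges were separate, and the lowest DMSO value was again sample 2. The mean fell from 785 ± 133 to 490 ± 46.0 (SD, n = 3), 62.4% of DMSO, a log2 fold change of -0.67 (SE 0.102) with -0.80 to -0.55 when each sample was left out. For each 100 STAT3 reads there were 31.2, 26.5 and 36.0 PIM1 reads in DMSO and 19.0, 21.2 and 18.7 in pladienolide B.

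**Figure D3:**
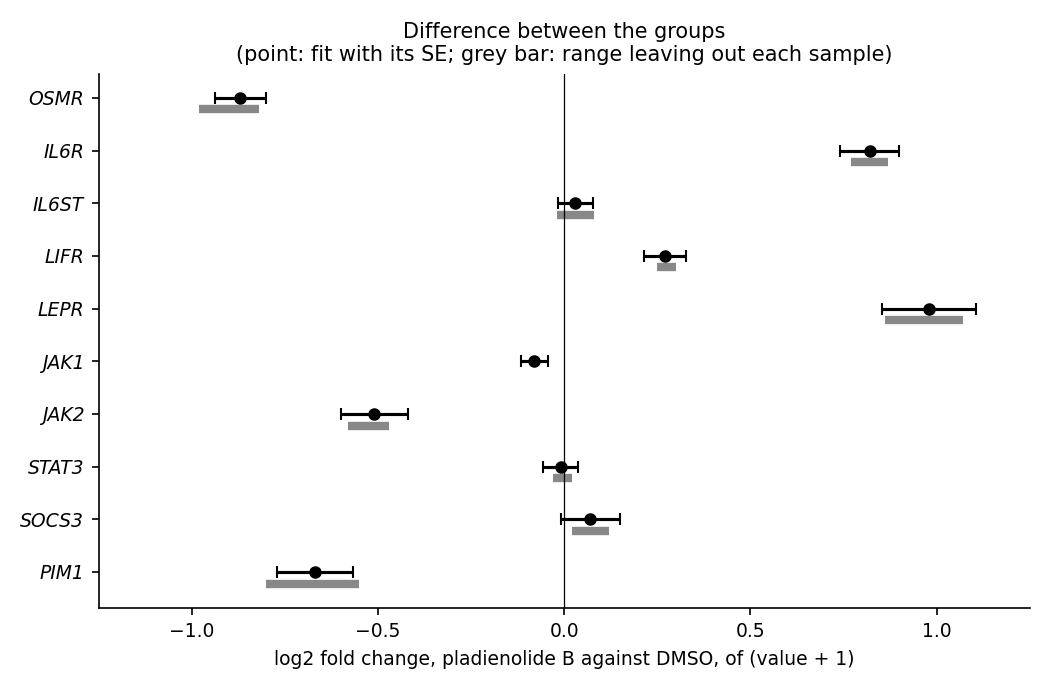
Log2 fold change of (value + 1), pladienolide B against DMSO (x axis), of the 10 genes, as points with the SE of the fit, above a grey bar that spans the values when each sample is left out. LEPR (0.98) and OSMR (-0.87) lie at the ends, IL6ST, STAT3 and SOCS3 lie within 0.07 of 0, and JAK1 has no visible bar since its value stayed at -0.08.

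For OSMR and PIM1, DMSO sample 2 lay on the side of the pladienolide B samples. Its log2 value was 0.31 below the mean of the other DMSO samples for OSMR and 0.40 below it for PIM1, while the other 8 genes differed from theirs by -0.06 to 0.13. Sample 2 was also the nearest to the pladienolide B group for LIFR and LEPR, by the smaller steps of 0.05 and 0.12. Of all tested genes, 16.4% differed in this sample by more than OSMR did, in either direction, and 11.2% by more than PIM1. The OSMR and PIM1 differences between the groups were larger without this sample. What set it apart was not tested.

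Levels of different genes were compared per kb of the canonical transcript. In DMSO, JAK1 had 1589 ± 4.36 adjusted reads per kb, IL6ST 1458 ± 10.5 and OSMR 1250 ± 150 (SD, n = 3), and these 3 stood above the rest. STAT3 followed at 510 ± 12.4, PIM1 at 290 ± 49.4, SOCS3 at 155 ± 6.49 and LIFR at 87.7 ± 1.90. JAK2 at 54.6 ± 4.42 and IL6R at 54.3 ± 0.383 had overlapping samples, and LEPR was lowest at 15.0 ± 0.802. The ranges of all other neighbours in this order were separate.

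In pladienolide B, IL6R at 96.3 ± 6.36 per kb lay clear of JAK2 at 38.3 ± 0.921, and its highest sample, at 103, reached the lowest of LIFR, at 102. OSMR, at 679 ± 42.2, had moved from near IL6ST (1491 ± 108) towards STAT3 (506 ± 19.2). SOCS3 (163 ± 11.3) and PIM1 (181 ± 17.0) had come to overlap, and so had IL6ST and JAK1 (1506 ± 2.38). The order of the top 6 depends on the length used. Per kb of all annotated exons in DMSO, IL6ST was first at 1091, followed by OSMR at 963, JAK1 at 614, PIM1 at 259, STAT3 at 224 and SOCS3 at 155. On that scale in pladienolide B, SOCS3 at 163 and PIM1 at 162 were next to each other below STAT3 at 222.

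**Figure D4:**
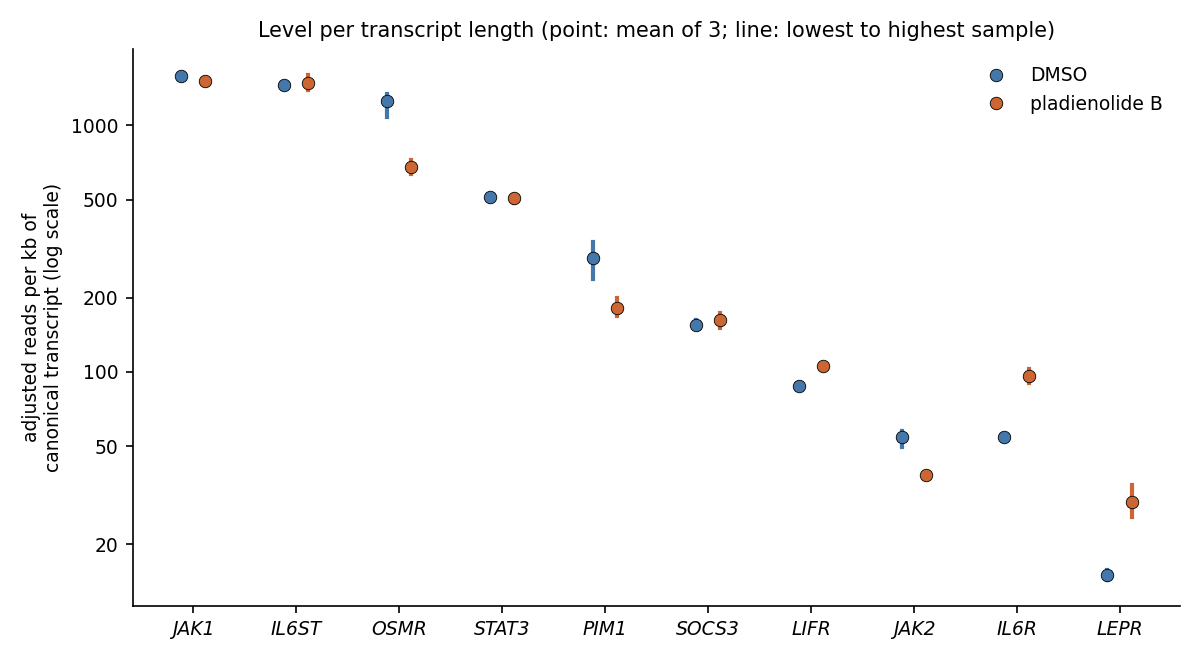
Adjusted reads per kb of canonical transcript (y axis, log scale) of the 10 genes in order of their DMSO level. Points are means of 3 samples and lines run from the lowest to the highest sample. IL6R rises past JAK2, which it matches in DMSO at about 54 per kb, and OSMR moves from 1250 to 679.

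The other genes of the pathway were read from 6 lists of known ligands, receptor chains, kinases and STATs, inhibitors, adaptors and STAT3 targets, which hold 87 genes besides the 10. Of the 74 tested, 13 rose, 19 fell and 42 did not pass, against the background of 22.4% higher and 25.2% lower, and their median log2 fold change was 0.01 where that of all genes was 0. The same background applies to the counts of each list below. Of the 32 calls, 21 held in each of the 12 alternative settings.

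Of the 11 ligand genes of these receptors, 7 had enough reads to test. Of these, 1 rose, 4 fell and 2 did not pass, and their median log2 fold change was -0.24. Each of the 5 calls was lost in at least 3 of the 12 alternative settings. IL6 itself was well expressed, with 1524, 1327 and 1724 adjusted reads in DMSO and 1550, 1521 and 958 in pladienolide B, and the groups overlapped (log2 fold change -0.21, limma adjusted p = 0.21). IL11, which signals through gp130 with its own receptor, had 96.3, 69.6 and 91.8 reads in DMSO and 112, 108 and 119 in pladienolide B (log2 fold change 0.40, limma adjusted p = 0.045), and it missed the threshold when any sample other than DMSO sample 1 was left out.

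CTF1 (cardiotrophin 1), CNTF (ciliary neurotrophic factor) and EBI3 (the partner chain of IL27) fell by 0.57, 0.46 and 0.36 on the log2 scale, with limma adjusted p of 0.045, 0.039 and 0.036. CTF1 held in only 2 of 12 settings, CNTF in 5 and EBI3 in 7. CTF1 was lost without any sample other than pladienolide B sample 3, CNTF without DMSO sample 1 or 3 or pladienolide B sample 1 or 2, and EBI3 without DMSO sample 1 or pladienolide B sample 1 or 3. The fourth fall was that of LIF (-0.24, limma adjusted p = 0.017), lost without DMSO sample 1 or 3 or pladienolide B sample 3. OSM, the ligand of OSMR, had 0 reads in every DMSO sample and 0 to 1 in pladienolide B, and LEP, the ligand of LEPR, had 0 to 6 reads in any sample. Neither could be compared at this depth.

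Of the 8 other receptor chains and receptor-shedding genes, 2 fell and 6 did not pass (median -0.06). IL11RA, the IL11 receptor, had 154, 194 and 159 adjusted reads in DMSO and 122, 119 and 123 in pladienolide B (log2 fold change -0.47, limma adjusted p = 0.0066), and LEPROT is given above. Both calls held in all 12 settings. The remaining chains that bind particular cytokines did not pass. IL27RA had a log2 fold change of -0.05, IL31RA of -0.07 and CNTFR of -0.80 (limma adjusted p = 0.62, 0.37 and 0.17). CNTFR had few reads, with 12.8 ± 2.88 in DMSO and 7.56 ± 3.90 in pladienolide B (SD, n = 3). ADAM10 and ADAM17, the proteases that shed IL6R from the cell surface, were near level, at log2 fold changes of -0.02 and 0.05 (limma adjusted p = 0.75 and 0.36).

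Among the 8 other JAK and STAT genes, 2 rose, 1 fell and 5 did not pass (median 0.09). STAT5B rose from 1040 ± 17.1 to 1238 ± 28.1 (SD, n = 3; log2 fold change 0.25, limma adjusted p = 0.00081). TYK2, which works beside JAK1 and JAK2 on gp130, fell from 2668 ± 91.0 to 2273 ± 99.7 (log2 fold change -0.23, limma adjusted p = 0.00076). STAT2, of the interferon response, rose by 0.17 (limma adjusted p = 0.045), but its groups overlapped and it held in 6 of 12 settings, not without DMSO sample 1 or 2 or pladienolide B sample 2 or 3.

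Of 15 inhibitors tested, 2 rose, 1 fell and 12 did not pass (median 0.06). PTPN1, a phosphatase that removes phosphate from JAK2 and TYK2, had the largest change that passed, from 4057, 4132 and 4058 in DMSO to 5548, 5488 and 5622 in pladienolide B (log2 fold change 0.44, limma adjusted p = 1.1e-07). The related PTPN2 rose by 0.16 (limma adjusted p = 0.018), a call that was lost without DMSO sample 1 or 3 or pladienolide B sample 1. SOCS4 fell by 0.18 on the log2 scale (limma adjusted p = 0.0053). SOCS1 and CISH, the members of SOCS3's family most often induced by cytokines, had log2 fold changes of 0.74 and 0.26 with wide errors (SE 0.401 and 0.162, limma adjusted p = 0.14 and 0.20).

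The 11 adaptors that link the receptors to RAS and PI3K held 1 rise, 4 falls and 6 genes that did not pass (median -0.08). The falls named by the rule were those of the RAS exchange factor SOS2 (-0.25, limma adjusted p = 0.0024), the insulin receptor substrate IRS1 (-0.23, adjusted p = 0.0080) and the PI3K subunit PIK3R2 (-0.19, adjusted p = 0.0057). IRS1 was lost without pladienolide B sample 1. The adaptor GRB2 rose by 0.10 (limma adjusted p = 0.049), and this call was lost without DMSO sample 1 or 3 or pladienolide B sample 1 or 2.

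The largest changes that passed in any of the 6 lists were among the genes known as STAT3 targets. Of the 25 tested, 7 rose, 7 fell and 11 did not pass, their median log2 fold change was 0.08, and 17 had separate groups. Over all genes tested, 22.4% rose, 25.2% fell and 55.3% had separate groups, and the counts of the list were not tested against these shares. Of these 14 calls, 13 held in all 12 settings, and JUNB was lost without DMSO sample 3 or pladienolide B sample 3. The 8 acute phase and related liver genes left untested (FGA, FGB, FGG, CRP, SAA2, SERPINA3, LBP and HP) had 0 to 11 reads in any sample. The acute phase gene SAA1 was tested at 7.05 ± 0.868 adjusted reads in DMSO and 12.8 ± 1.94 in pladienolide B (SD, n = 3; log2 fold change 0.77, SE 0.403, limma adjusted p = 0.13). Many of the targets are also induced by other factors.

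The largest rise was in CDKN1A, which encodes the cell cycle inhibitor p21, from 987, 845 and 866 adjusted reads in DMSO to 2054, 2087 and 1865 in pladienolide B (log2 fold change 1.16, limma adjusted p = 4.5e-10). HIF1A, the hypoxia factor, rose from 3770, 5462 and 3499 to 7553, 7469 and 7099 (0.82, limma adjusted p = 6.3e-06). ZFP36, which speeds the decay of cytokine mRNA, rose from 149 ± 14.6 to 242 ± 23.5 (SD, n = 3; 0.70, limma adjusted p = 0.00013). The other rises were those of CCND1, ICAM1, IER3 and BCL2L1.

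FOS, an immediate early gene, fell to 19.8% of DMSO, from 401, 372 and 447 to 55.6, 85.3 and 100 (log2 fold change -2.36, limma adjusted p = 7.1e-09). VEGFA, the vascular growth factor, fell from 1490, 917 and 1414 to 471, 528 and 546 (-1.27, limma adjusted p = 3.9e-07). BCL3, a cofactor of NF-kB, fell from 340 ± 31.4 to 241 ± 27.5 (SD, n = 3; -0.50, limma adjusted p = 0.00088). The other falls were those of MYC, BIRC5, CEBPD and JUNB. In HIF1A and VEGFA, DMSO sample 2 again lay on the side of the pladienolide B samples.

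PIM2 and PIM3, the kinases closest to PIM1, did not pass: PIM2 had a log2 fold change of -0.30 (SE 0.119, limma adjusted p = 0.050) and PIM3 of 0.01 (SE 0.066, adjusted p = 0.94). Of the 52 other pathway genes tested that have a promoter window in the RefSeq table, 4 held TTCNNNGAA (BCL6, CISH, ICAM1 and IRF1), of which ICAM1 rose and the other 3 did not pass.

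**Figure D5:**
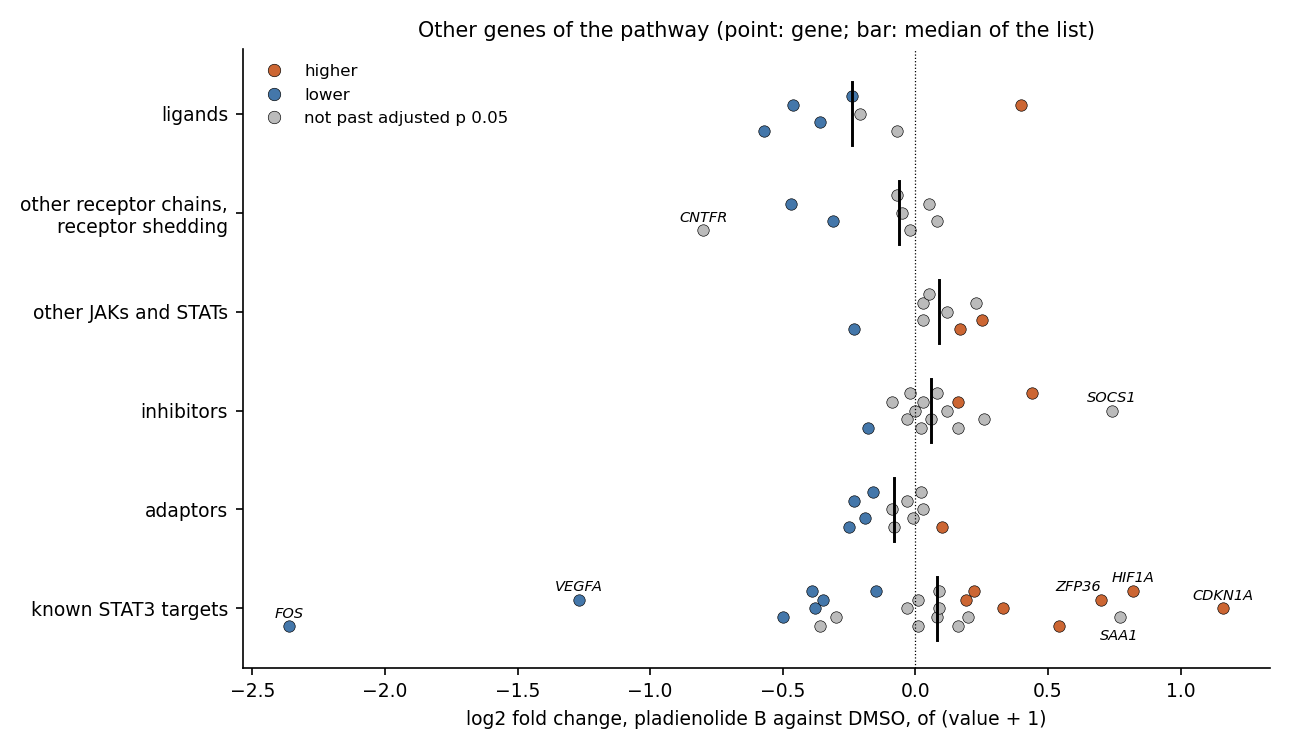
Log2 fold change of (value + 1), pladienolide B against DMSO (x axis), of each tested gene of the 6 other lists, with orange points higher, blue points lower and grey points not past an adjusted p of 0.05 by limma, and a bar at the list's median. The STAT3 targets spread from FOS at -2.36 to CDKN1A at 1.16, while the other JAKs and STATs stay between -0.23 and 0.25.

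For OSMR, STAT3 and SOCS3, the genes most like them over the 6 samples were sought by Pearson's correlation of log2(value + 1) among 13210 genes with a mean of at least 50. OSMR was most like TTC7B, RASSF7 and GGT1 (0.999 each). All 3 were lower in pladienolide B, with DMSO sample 2 the lowest of its group. Both are features of OSMR itself, so the choice by correlation with OSMR carries them over. STAT3 was most like LINC00265 (0.981), PTGES3L (0.963) and LINC00963 (0.953), and SOCS3 was most like VAMP4 (0.992), TRAPPC10 (0.982) and SLC22A5 (0.979). The 6 points share their libraries and, for OSMR, the difference between the groups. Each gene named is among the highest of 13210 correlations over only 6 samples, and a search of this size yields high values by selection. No test was run against this, so the values are no sign of shared regulation.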

How the data were processed

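Poly(A) RNA of 3 DMSO and 3 pladienolide B samples was sequenced. Per the methods, reads were aligned to hg38 with hisat2, while the submitters' processing notes list HISAT2, HTSeq 0.12.4, DESeq2 and hg19. Of 26990 symbols also in GENCODE 44, 99.9% had a deposited position overlapping that on GRCh38. Counting by strand is not given in the sources used here. The deposited value of a gene in a sample is a signal that the authors scaled to a common library size. They were inverted as edgeR's quantile-adjusted counts (common dispersion 0.0027), and 100% of the 96432 values that are at least 10 came out within 0.02 of a whole read. The log2 fold change, p-value and q-value columns that the authors deposited compare the groups and were not used.

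Genes were kept by filterByExpr of edgeR 4.0.16 (minimum 10 counts, 15 in total), and 16178 were tested with limma 3.58.1 in R 4.3.3 on log2(value + 1), with a variance trend, two-sided, Benjamini-Hochberg adjusted over all of them. A pseudocount makes folds of low genes smaller. Alternatives were edgeR's quasi-likelihood test with TMM or RLE and DESeq2 1.42.0 on the recovered reads, no filter, a pseudocount of 0.1, a replicate block and leaving out each sample. The fit and inversion were tested on simulated data with few changed genes, the same dispersion for every gene and no sample that stood apart. Those settings are simpler than the data here. Values per kb used the canonical transcript, and SDs expected from counting are the square root of the mean.

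The members and lists were chosen with earlier results of these data known. All members are named, with at most 3 rises and 3 falls of each list, genes overlapping a member or starting within 5 kb of it that bear on it, and for OSMR, STAT3 and SOCS3 the 3 genes most like it. Other genes named were chosen after their values were seen. The values of 1 listed gene are not reported here.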

Additional observations from a re-analysis of the deposited data

How the results depend on the processing

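The 10 genes were chosen on this contrast and the alternatives refit the same samples, so the values of these genes under them are a description and no support. Of 120 values of the 10 genes under the alternatives, 117 moved by less than 1 SD between replicates and 3 by more, all of JAK1 with the count tools, from -0.08 to -0.07, and OSMR, IL6R, LIFR, LEPR, JAK2 and PIM1 kept their sign. The genes called numbered 7695 in the fit described and 6568 to 7836 under the alternatives, 6985 with DESeq2 and 7402 without the filter. Among the other pathway genes, 11 to 14 were called higher and 14 to 20 lower, and no call changed direction. The replicate block gave 7349 called genes, with 13 of the pathway genes higher and 17 lower. Samples with the same number did not deviate together (correlations of -0.085, -0.06 and 0.051). With 3 samples in a group these correlations show no pairing by number but cannot exclude one, and the labels do not state any. Genes that the filter on low values removed, such as OSM and 8 acute phase and related genes with 0 to 11 reads, could not be compared at this depth.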
